A study of Mus musculus with 24 samples.

Results

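The kinesin motor family was followed through cultured hepatocytes and livers of mice with NEMO, KEAP1 or both deleted from hepatocytes. Members were all genes whose symbol starts with Kif or Kifc followed by a digit and that had a probe set annotated with that symbol alone. Of 18820 such genes on the array, 39 were kinesins, and a gene with several probe sets was read from the probe set that was brightest on average. They were sorted by known function into 12 mitotic kinesins, 16 transport kinesins and 11 others. Kif2a, a relative of the mitotic Kif2b and Kif2c, was placed among the others. RNA was measured on 24 1-colour arrays, with 3 arrays in each of 8 groups. All levels are the deposited log2 expression values, and a change is the difference between 2 group means on that scale, given with the standard error of the fit. No member was filtered out, 21 of the 39 averaged at least 4 over all arrays (7 mitotic, 12 transport and 2 others), and 7 stayed below 4 on every array, where the median over all probe sets was 4.03 to 4.23.

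All mice are labelled as males aged 8 weeks. The double knockouts, labelled NEMOΔhepa/KEAP1Δhepa, had both genes deleted in hepatocytes. Mice labelled NEMOΔhepa had the NEMO gene deleted there and mice labelled KEAP1Δhepa the KEAP1 gene. Loss of the proteins was not measured here. Controls were NEMOf/f mice, whose label names the floxed NEMO gene and no Cre, so there was no group with the Cre transgene alone. Deletion was driven by Alfp-Cre, which acts in the hepatocyte lineage. Whether other liver cells, such as bile duct cells, kept both genes was not measured here. Each genotype was measured in primary hepatocytes, which were freed with collagenase, left to attach in serum medium until the following day and given fresh medium, and in whole liver. NEMO is a product of the gene Ikbkg and the regulatory part of the IKK complex, which switches on NF-kB, and KEAP1 marks the antioxidant factor NRF2 for degradation. Samples of the 2 tissues are not tied to the same animals by their labels, and p-values measure the spread between samples labelled as replicates.

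Kinesins are motor proteins that use ATP to walk along microtubules or to take their ends apart. Mitotic kinesins build the spindle, move chromosomes and help daughter cells to part, and their genes are switched on with the cell cycle, while most adult hepatocytes are quiescent. Transport kinesins carry vesicles, endosomes, mitochondria and cilium components in cells whether or not they divide. Genes of the G2 and M phases are known to be repressed in quiescent cells through a promoter element called CHR, often found beside CCAAT boxes that the factor NF-Y binds.

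Of the 24 arrays, 4 were in doubt, and values without them are given where they bear on the call of a kinesin. On hepatocyte double knockout 3 and hepatocyte control 1, Xist was at 9.76 and 9.65 although the mice are labelled male, and it lay between 2.00 and 2.98 on the other 22 arrays. Liver double knockout 3 carried bile duct and fat transcripts, with Krt7 at 7.81 and Adipoq at 7.17. Nqo1, a target of NRF2, read 9.17 on the array labelled liver control 3, with 4.71 and 5.37 on the other control livers. Ikbkg lay between 6.01 and 6.60 in double and NEMO knockouts, and between 6.63 and 7.20 in KEAP1 knockouts and controls except for 6.40 on the array labelled liver control 3. Keap1 was at 5.62 to 5.93 in double knockouts and 5.38 to 5.91 in KEAP1 knockouts, against 5.81 to 6.62 in NEMO knockouts and 5.88 to 6.35 in controls. The mean of 7 hepatocyte markers lay between 12.44 and 12.82 on all arrays.

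Promoter windows of the members are shown because 9 of the 12 mitotic members rose in NEMO knockout hepatocytes. A link between motifs and changes was not tested. RefSeq windows of assembly GRCm38.p6, from 250 bases before to 50 bases after the annotated start, were found for 31 of the 39 members. The CHR core TTTGAA, searched on both strands, was in 10 of 12 windows of mitotic kinesins, or 83.3%. It was in 1 of 12 windows from 10 transport kinesins, or 8.33%, and in 17.9% of all 32851 windows. Of the 11 windows from other kinesins, 2 held it, or 18.2%. For the spindle and midbody partners of these motors it was in 12 of 19 windows, or 63.2%. Among the mitotic members, Kif2b and Kif18a had no TTTGAA in this window. Kif2a, placed among the others, had no CHR core in its windows either. The CCAAT box, also searched on both strands, was in 66.7% of mitotic windows, 33.3% of transport windows and 37.4% of all windows. The less common CHR core TTCGAA was in 0 of 12 mitotic windows and 1.56% of all windows. A CCAAT box together with either core was found in 58.3% of mitotic windows, none of the transport windows and 27.3% of the windows of other kinesins. The pair was in 57.9% of the partners' windows and 7.52% of all windows. No motif shares its position with another in the windows printed here. A match describes letters in the window and shows no binding.

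**Figure D1:**
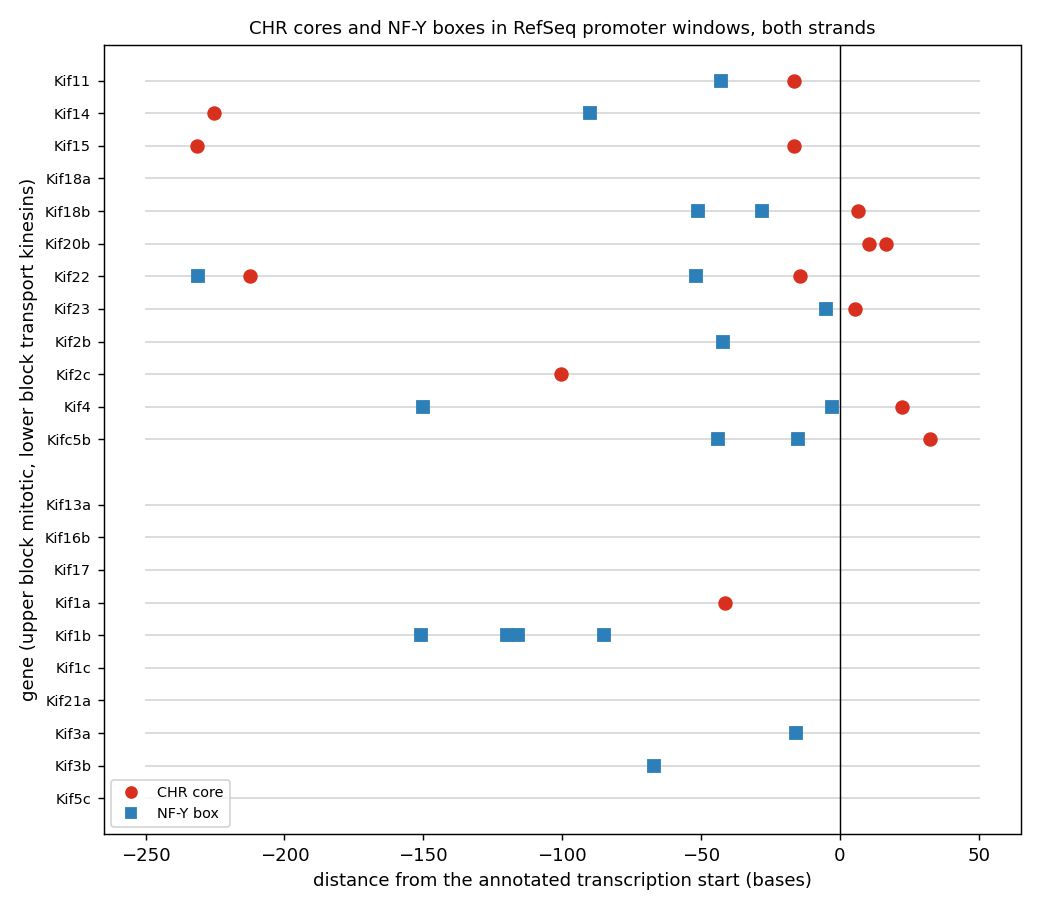
Position of each CHR core (circle) and NF-Y box (square) on either strand, in bases from the annotated transcription start, for the mitotic kinesins (upper block) and transport kinesins (lower block) that have a RefSeq window. Genes with several windows are drawn on 1 line, and among transport genes Kif1a alone holds a CHR core TTTGAA.

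The windows of 4 mitotic kinesins with large changes and of Kif13a, the transport kinesin that fell in NEMO knockout hepatocytes, are printed from 250 bases before to 30 bases after the start. Capitals mark TTTGAA and CCAAT or their reverse complements TTCAAA and ATTGG. Kif23 lies at chr9:61946770-61947049 on the minus strand, Kif11 at chr19:37376132-37376411 on the plus strand and Kif2c at chr4:117178743-117179022 on the minus strand. Kif4 lies at chrX:100625815-100626094 on the plus strand and Kif13a at chr13:46929689-46929968 on the minus strand.
Kif23: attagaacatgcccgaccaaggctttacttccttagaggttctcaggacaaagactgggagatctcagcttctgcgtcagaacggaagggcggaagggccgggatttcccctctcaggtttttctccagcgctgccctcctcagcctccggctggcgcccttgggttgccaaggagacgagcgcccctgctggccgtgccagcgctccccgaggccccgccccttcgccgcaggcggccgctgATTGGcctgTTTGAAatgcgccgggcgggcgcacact
Kif11: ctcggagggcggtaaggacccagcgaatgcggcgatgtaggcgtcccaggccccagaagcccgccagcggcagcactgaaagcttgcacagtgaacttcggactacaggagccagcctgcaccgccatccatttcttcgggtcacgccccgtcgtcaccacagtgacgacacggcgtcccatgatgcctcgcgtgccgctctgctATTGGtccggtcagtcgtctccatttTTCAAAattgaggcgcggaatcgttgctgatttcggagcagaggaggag
Kif2c: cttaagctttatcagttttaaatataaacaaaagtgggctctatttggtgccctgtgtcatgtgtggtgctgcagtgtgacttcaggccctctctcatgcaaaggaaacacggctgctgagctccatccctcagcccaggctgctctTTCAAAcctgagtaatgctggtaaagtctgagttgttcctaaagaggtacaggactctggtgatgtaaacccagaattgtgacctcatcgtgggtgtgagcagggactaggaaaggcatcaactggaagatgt
Kif4: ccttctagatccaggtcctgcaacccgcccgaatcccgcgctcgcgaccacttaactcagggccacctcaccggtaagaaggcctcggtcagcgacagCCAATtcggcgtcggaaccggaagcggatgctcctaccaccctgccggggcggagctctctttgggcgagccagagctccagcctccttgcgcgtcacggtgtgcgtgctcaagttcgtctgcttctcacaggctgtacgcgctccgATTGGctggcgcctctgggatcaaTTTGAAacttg
Kif13a: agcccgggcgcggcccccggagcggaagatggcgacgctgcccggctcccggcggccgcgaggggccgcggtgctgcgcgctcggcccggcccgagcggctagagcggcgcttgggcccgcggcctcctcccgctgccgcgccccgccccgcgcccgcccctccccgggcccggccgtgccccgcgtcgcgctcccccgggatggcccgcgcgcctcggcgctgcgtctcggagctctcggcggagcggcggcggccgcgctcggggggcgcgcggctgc
In Kif23 the CHR core lies at positions 3 to 8 from the start, and an inverted CCAAT box lies at -7 to -3. The Kif11 window holds an inverted core at -19 to -14 and an inverted CCAAT box at -45 to -41. That of Kif2c holds an inverted core at -103 to -98 and no CCAAT box. The Kif4 core lies at 20 to 25, with CCAAT boxes at -152 to -148 and, inverted, at -5 to -1. The Kif13a window holds neither motif.

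In NEMO knockout hepatocytes, mitotic kinesins rose over controls and most transport kinesins were not called. Of the 12 mitotic members, 9 rose, by 1.76-fold to 8.37-fold, at an adjusted p under 0.05 (limma, Benjamini-Hochberg over 18820 genes), where 4.61% of all genes rose. Of the 16 transport members 1 fell and 0 rose, where 2.05% of all genes fell, and 0 of the 11 others were called. The median change was 1.62 over the mitotic members, -0.12 over the transport members, -0.01 over the others and -0.02 over all genes. NEMO knockout arrays lay wholly above control arrays for 11 of 12 mitotic members, as they did for 11.2% of all genes.

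Among the motors that set up the spindle, Kif11, which pushes the poles apart, was at 6.04, 6.34 and 5.71 in NEMO knockout hepatocytes, against 3.24, 3.43 and 3.56 in control hepatocytes. Its change was 2.62 ± 0.228 (adjusted p = 2.67e-05), and the groups lay far apart. A second, dimmer Kif11 probe set averaged 3.04 in the knockouts and 2.52 in controls. Kif15, which backs up Kif11, was at 3.78, 4.24 and 3.57 in the knockouts, against 3.30, 2.90 and 2.96 in controls, a change of 0.81 ± 0.211 (adjusted p = 0.0358). The Kif15 groups did not overlap, but the call held in only 7 of the 12 fits that each left out 1 array. It was lost without control 2, control 3, KEAP1 knockout 3, NEMO knockout 1 or NEMO knockout 2, with adjusted p up to 0.141. Kifc5b, a minus-end-directed kinesin close to Kifc1, was at 4.80, 4.85 and 4.44 in the knockouts, against 4.32, 4.12 and 4.07 in controls, and its change of 0.52 ± 0.169 was not called (adjusted p = 0.091). Kifc1 shares a probe set with Kifc5b and was not analysed here, and the level of Kifc5b is uncertain because near-identical copies may share signal.

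Among the motors that act on microtubule ends, Kif2c, a depolymerase that corrects faulty kinetochore attachments, was at 6.44, 7.26 and 6.29 in NEMO knockout hepatocytes, against 3.82, 3.49 and 3.47 in controls. This change of 3.06 ± 0.296 (adjusted p = 4.68e-05) was the largest among the 39 members. Kif18b, a partner of Kif2c at the ends of astral microtubules, was at 4.74, 5.81 and 4.77 in the knockouts, against 3.38, 3.56 and 3.55 in controls, a change of 1.61 ± 0.262 (adjusted p = 0.00214). A second, dimmer Kif18b probe set averaged 2.67 in the knockouts and 2.68 in controls, far under the array medians, where a change may not be measurable. Kif18a, which damps chromosome movements, was at 4.08, 4.79 and 4.25 in the knockouts, against 3.59, 3.18 and 3.47 in controls, a change of 0.96 ± 0.201 (adjusted p = 0.0105). Neither Kif18 gene had overlapping groups. Kif2b, a relative of Kif2c, lay between 2.23 and 3.11 on all 24 arrays, and its change was -0.10. Their relative Kif2a, placed among the others, averaged 5.94 in the knockouts and 5.82 in controls and was not called.

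The chromosome-bound motors rose as well. Kif4, which organises the spindle midzone with Prc1, was at 4.52, 5.56 and 4.53 in NEMO knockout hepatocytes, against 2.51, 2.71 and 2.78 in controls, a change of 2.20 ± 0.277 (adjusted p = 0.000321). Kif22, which pushes chromosome arms away from the poles, was at 5.16, 5.84 and 5.33 in the knockouts, against 3.86, 3.61 and 3.98 in controls, a change of 1.63 ± 0.305 (adjusted p = 0.00548). Neither gene had overlapping groups. Kif4-ps, by its name a pseudogene of Kif4, changed by -0.12 and was not called. Such copies may share signal, which was not tested.

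Of the motors of cell separation, Kif23, the motor subunit of centralspindlin, was at 5.71, 5.77 and 5.36 in NEMO knockout hepatocytes, against 3.31, 3.44 and 3.28 in controls. Its change of 2.27 ± 0.188 had the lowest adjusted p of the family (1.8e-05). Kif20b, which acts late in cytokinesis, was at 5.25, 6.12 and 5.52 in the knockouts, against 3.59, 3.46 and 2.96 in controls, a change of 2.29 ± 0.289 (adjusted p = 0.000325). Both genes had groups well apart. Kif14, a midbody motor that binds citron kinase, was at 3.92, 4.20 and 3.43 in the knockouts, against 3.08, 3.19 and 2.76 in controls. Its groups did not overlap, and its change of 0.84 ± 0.259 was not called (adjusted p = 0.0778). The called mitotic kinesins other than Kif15 kept their calls in all 12 fits that left out 1 array, and the same 9 were called without the arrays in doubt, where 4.14% of all genes rose.

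**Figure D2:**
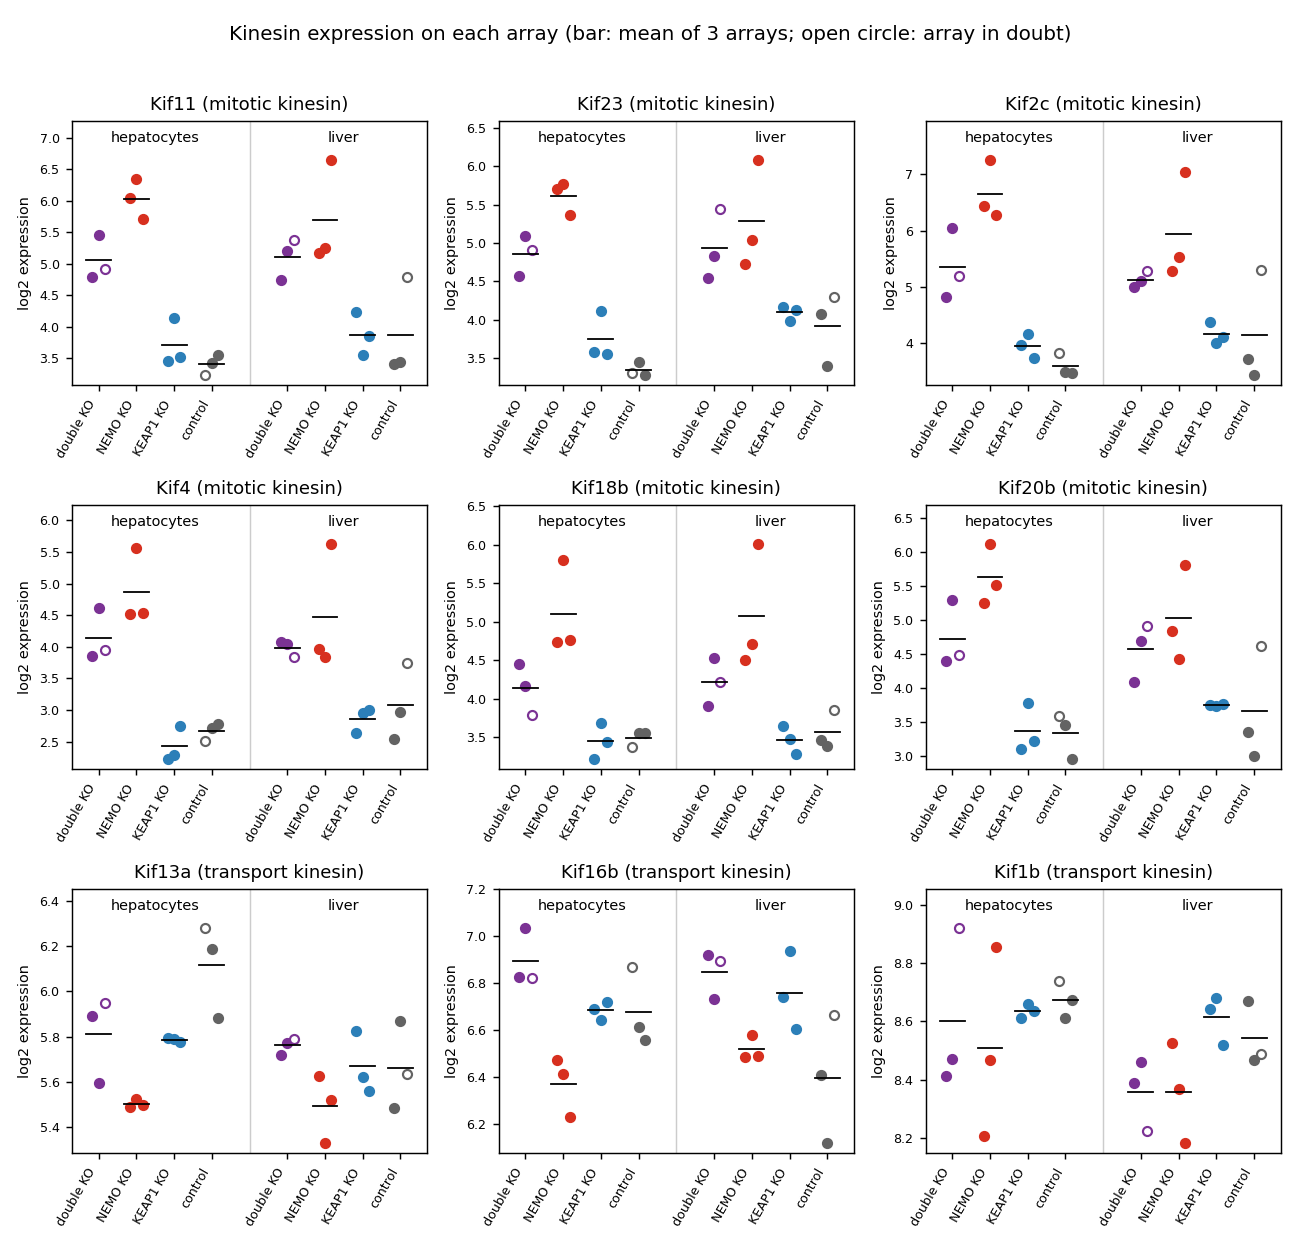
Log2 expression of 6 mitotic and 3 transport kinesins on each of the 24 arrays, hepatocytes left and liver right, with the mean of 3 arrays as a bar and arrays in doubt as open circles. NEMO knockout hepatocytes lie above controls for the mitotic genes and below them for Kif13a, and each panel has its own scale.

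Kif13a, which moves endosomes and carries the mannose 6-phosphate receptor, was the transport kinesin that fell. It was at 5.49, 5.53 and 5.50 in NEMO knockout hepatocytes, against 6.28, 6.19 and 5.88 in controls, so the groups did not overlap. It fell by 0.61 on the log2 scale (SE 0.128, adjusted p = 0.0103), with an adjusted p of 0.0473 without the arrays in doubt, where 1.45% of all genes fell. Kif1b, a motor of mitochondria and vesicle precursors, was at 8.21, 8.47 and 8.85 in the knockouts, against 8.74, 8.61 and 8.67 in controls. Kif5b, a heavy chain of conventional kinesin, was at 8.05, 7.73 and 7.97 in the knockouts, against 7.67, 8.12 and 7.90 in controls, and neither gene had groups that stood apart. The other transport changes lay between those of Kifc2 and Kif21b, both not called. Kifc2 averaged 4.55 in the knockouts and 4.91 in controls, and Kif21b changed by 0.51. When each array was centred on its median, the median change over all genes was -0.19. Of 18820 genes, 718 were called higher and 2378 lower, against 867 higher and 385 lower as deposited. Kif13b, a vesicle motor related to Kif13a, and Kif16b, a motor of early endosomes, were then also called lower, and 8 mitotic members were called higher.

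**Figure D3:**
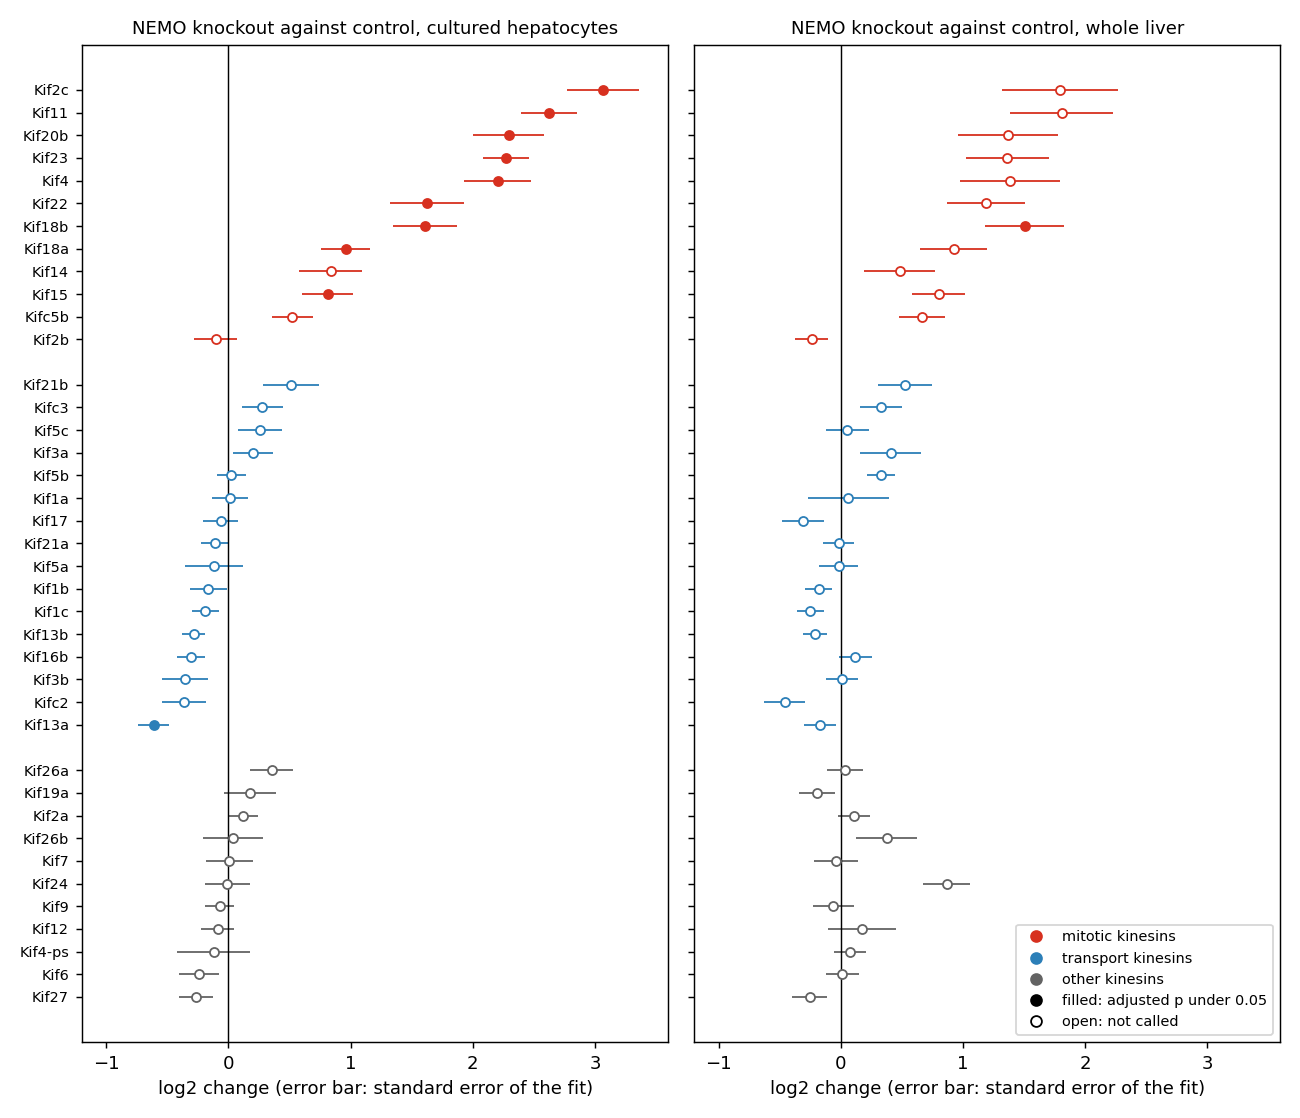
Log2 change in NEMO knockouts against controls for all 39 members, by class, in hepatocytes (left) and liver (right), with the standard error of the fit as bars and called genes filled. In hepatocytes 9 mitotic members and Kif13a are filled, and in liver Kif18b alone is.

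Partners of both classes were read in the same fit. Of 20 spindle and midbody partners, 18 rose in NEMO knockout hepatocytes, with a median change of 2.30. Ect2, the exchange factor that centralspindlin recruits for cytokinesis, changed by 3.40 ± 0.304 (adjusted p = 2.98e-05), and Prc1, which bundles midzone microtubules, by 3.31 ± 0.245 (adjusted p = 1.05e-05). The mitotic kinase Plk1 changed by 3.20 ± 0.31 and the contractile ring protein Anln by 3.12 ± 0.276. Of 19 transport partners, which include kinesin light chains, adaptors and dynein subunits, 1 rose, Dync1li2 by 0.46 ± 0.117 (adjusted p = 0.0299), with 0 called without the arrays in doubt and a median change of -0.01. The kinetochore kinesin Cenpe, whose symbol lies outside the rule, was at 5.70, 6.63 and 5.63 in the knockouts, against 3.46, 3.56 and 3.28 in controls. The proliferation marker Mki67 was at 7.51, 8.19 and 7.77 in the knockouts, against 3.81, 3.54 and 3.99 in controls. Both stood well apart, and 6 of 7 proliferation genes rose. Of 14 regulators of cell cycle genes, 3 rose and 1 fell. Mybl1, a Myb factor, changed by 1.97 ± 0.248, the pocket protein Rbl1 by 1.23 ± 0.213 and E2f1 by 0.84 ± 0.155, while Rbl2, a pocket protein of quiescent cells, fell by 0.44 (adjusted p = 0.0397).

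Markers of other liver cells were higher on the same arrays. In NEMO knockout hepatocytes 7 of 7 macrophage markers, 6 of 6 endothelial markers and 5 of 6 stellate cell markers rose, and 0 of 7 hepatocyte markers, 0 of 7 T and NK cell markers, 0 of 4 B cell markers and 0 of 4 neutrophil markers were called. The mean level of the macrophage markers was 8.18 to 8.63 in double knockout, 7.68 to 8.16 in NEMO knockout, 6.52 to 7.34 in KEAP1 knockout and 5.67 to 6.59 in control hepatocytes. That of the endothelial markers was 7.83 to 8.00 in double knockout, 7.46 to 7.81 in NEMO knockout, 7.08 to 7.60 in KEAP1 knockout and 5.58 to 6.50 in control hepatocytes. The stellate markers averaged 5.77 to 5.97 in double knockout, 5.95 to 6.26 in NEMO knockout, 5.03 to 5.11 in KEAP1 knockout and 4.36 to 4.72 in control hepatocytes. Their part in the kinesin result was not tested. In such mixed samples, more cells of a type and more RNA per cell cannot be told apart.

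In double knockout hepatocytes fewer mitotic kinesins passed the test against the same controls. Of the 12, 5 rose, where 6.73% of all genes rose, and the median change was 0.67 over the mitotic members, against -0.01 over the transport members and -0.03 over all genes. Kif23 was at 4.57, 5.09 and 4.91 in double knockouts, against 3.31, 3.44 and 3.28 in controls, a change of 1.52 ± 0.188 (adjusted p = 0.000192). Kif11 was at 4.79, 5.46 and 4.92 in double knockouts, against 3.24, 3.43 and 3.56 in controls, a change of 1.65 ± 0.228 (adjusted p = 0.000419). Kif2c was at 4.83, 6.05 and 5.20 in double knockouts, against 3.82, 3.49 and 3.47 in controls, a change of 1.77 ± 0.296 (adjusted p = 0.00175). None of these genes had overlapping groups. Kif4 changed by 1.47 ± 0.277 and Kif20b by 1.39 ± 0.289, and the 5 calls held without the arrays in doubt, where 6.44% of all genes rose, and in all 12 fits that left out 1 array. Kif18b, at 4.45, 4.17 and 3.79 in double knockouts, against 3.38, 3.56 and 3.55 in controls, also had groups that did not overlap, and its change of 0.64 was not called (adjusted p = 0.16).

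Of the transport kinesins 0 were called between double knockout and control hepatocytes. Kif13a, at 5.89, 5.60 and 5.95 in double knockouts, against 6.28, 6.19 and 5.88 in controls, had overlapping groups and an adjusted p of 0.172. Kif6, one of the other kinesins, was at 3.14, 3.10 and 3.44 in double knockouts, against 3.59, 4.18 and 3.75 in controls, and fell by 0.61 on the log2 scale (SE 0.166, adjusted p = 0.0334), where 2.99% of all genes fell. The groups did not overlap, and this call held in 8 of the 12 fits that left out 1 array. It also held with the arrays in doubt left out (adjusted p = 0.0149), where 2.79% of all genes fell. A second, dimmer Kif6 probe set averaged 2.72 in double knockouts and 3.12 in controls. Both Kif6 probe sets averaged under the array medians of 4.03 to 4.23 in these groups, where a change may be poorly measured. Spindle partners rose in 15 of 20 cases with a median change of 1.42, and Mki67 changed by 2.94 ± 0.239. Centring each array called 925 of 18820 genes higher and 3236 lower, against 1267 higher and 563 lower as deposited. Among the 16 transport members, Kif13a and Kif13b were then called lower. Macrophage markers rose in 7 of 7 cases and endothelial markers in 6 of 6, and their part in the result was not tested.

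Set directly against NEMO knockout hepatocytes, double knockout hepatocytes had lower mitotic kinesins. The median change was -0.78 over the mitotic members, against 0.08 over the transport members and -0.01 over all genes, and 11 of the 12 mitotic changes were below 0. The test was passed by 4, where 1.16% of all genes fell. These were Kif2c, lower by -1.30 ± 0.296 (adjusted p = 0.0317), Kif11 by -0.97 ± 0.228 (adjusted p = 0.0353), Kif18a by -0.81 ± 0.201 (adjusted p = 0.0462) and Kif23 by -0.75 ± 0.188 (adjusted p = 0.0475). For Kif11, Kif18a and Kif23, each double knockout array lay below each NEMO knockout array, and so did those of Kif2c at 4.83, 6.05 and 5.20 in double knockouts, against 6.44, 7.26 and 6.29 in NEMO knockouts. Without the arrays in doubt 0 mitotic members passed, where 1.42% of all genes fell, with a median change of -0.76 and adjusted p of 0.0726 for Kif2c, 0.0854 for Kif11, 0.112 for Kif18a and 0.0853 for Kif23. Of the fits that left out 1 array, those leaving out NEMO knockout 2 or else double knockout 1 or 3 called 0, that without NEMO knockout 1 called 1, and those without control 3, KEAP1 knockout 1, KEAP1 knockout 3 or double knockout 2 called 2.

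Kif16b moved the other way between these groups, with levels of 6.83, 7.03 and 6.82 in double knockouts, against 6.47, 6.41 and 6.23 in NEMO knockouts. It rose by 0.52 ± 0.112 (adjusted p = 0.0237), where 2.16% of all genes rose, and the groups did not overlap. The call held without the arrays in doubt (adjusted p = 0.0209), where 2.39% of all genes rose, and was lost without NEMO knockout 2, NEMO knockout 3 or double knockout 2. Of the spindle partners 6 of 20 fell, and 2 of 20 without the arrays in doubt. Racgap1, which forms centralspindlin with Kif23, changed by -1.38 ± 0.259 (adjusted p = 0.0111). Mki67 changed by -1.10 ± 0.239 (adjusted p = 0.0252), with an adjusted p of 0.0568 once the arrays in doubt were left out. Of the macrophage markers 1 of 7 was called, Marco, which was higher by 1.28 ± 0.199 in double knockouts.

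KEAP1 knockout hepatocytes gave 0 called kinesins against controls (limma), where 1.87% of all genes were called, and 5 of the 39 had an unadjusted p under 0.05, as did 13.6% of all genes. The median change was -0.01 over the mitotic and 0.07 over the transport members, and 0.11 and 0.01 without the arrays in doubt. Kif11 was at 3.46, 4.14 and 3.52 in KEAP1 knockouts, against 3.24, 3.43 and 3.56 in controls, and Kif2c at 3.98, 4.17 and 3.74 in KEAP1 knockouts, against 3.82, 3.49 and 3.47 in controls. Both pairs of groups overlapped. In these hepatocytes 6 of 6 endothelial and 2 of 7 macrophage markers rose, and Mki67 had an adjusted p of 0.54.

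Against KEAP1 knockouts, double knockout hepatocytes had 5 mitotic kinesins higher, where 2.16% of all genes rose, and a median mitotic change of 0.80. Kif4 was at 3.85, 4.61 and 3.95 in double knockouts, against 2.23, 2.29 and 2.75 in KEAP1 knockouts, a change of 1.71 ± 0.277 (adjusted p = 0.00572). All double knockout arrays were the higher ones. Kif2c changed by 1.40 ± 0.296 (adjusted p = 0.0236), Kif20b by 1.36 ± 0.289 (adjusted p = 0.0252), Kif11 by 1.35 ± 0.228 (adjusted p = 0.00771) and Kif23 by 1.11 ± 0.188 (adjusted p = 0.00747). The fits without KEAP1 knockout 1, KEAP1 knockout 3 or double knockout 2 called 3, while 5 were called without the arrays in doubt, where 2.83% of all genes rose. Of the transport members 0 were called. Of the macrophage markers 5 of 7 rose, and their part was not tested. The interaction, which asks whether the change with both losses differs from the sum of the 2 single changes, called 0 members in hepatocytes (limma), where 0.0425% of all genes were called. The median interaction over the mitotic members was -0.61, and 5 of them had an unadjusted p under 0.05, as did 9.93% of all genes. The member with the lowest p, Kif23, had an interaction of -1.16 ± 0.265 (adjusted p = 0.154).

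**Figure D4:**
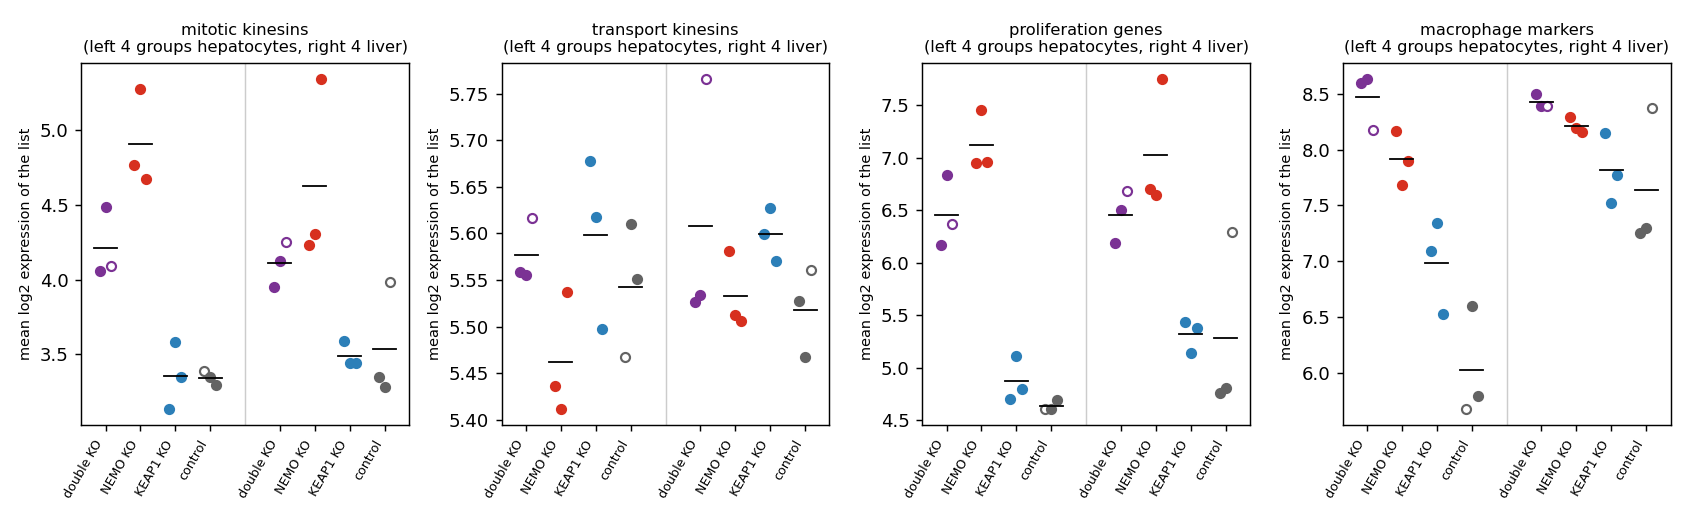
Mean log2 level of the mitotic kinesins, transport kinesins, proliferation genes and macrophage markers on each array, by genotype, in hepatocytes and liver. The mitotic mean is 4.67 to 5.27 in NEMO knockout hepatocytes, against 3.30 to 3.39 in control hepatocytes, while the transport mean lies between 5.41 and 5.77 on all 24 arrays.

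In whole liver, 11 of the 12 mitotic kinesins had higher means in NEMO knockouts than in controls, Kif2b being the exception, and few passed the test. The median mitotic change was 1.28, against 0.00 over transport members and -0.04 over all genes, and 1 of 12 was called, where 1.01% of all genes rose. That was Kif18b, at 4.50, 4.72 and 6.01 in NEMO knockouts, against 3.47, 3.39 and 3.85 in controls, a change of 1.51 ± 0.326 (adjusted p = 0.0469). Its arrays did not overlap between groups, but the call held in 3 of 12 fits that left out 1 array, and its dim second probe set averaged 2.29 in the knockouts and 2.28 in controls. Kif11 was at 5.17, 5.25 and 6.64 in NEMO knockout livers, against 3.41, 3.44 and 4.79 in control livers, a change of 1.81 ± 0.423 (adjusted p = 0.0572). Kif2c was at 5.28, 5.53 and 7.04 in NEMO knockout livers, against 3.72, 3.44 and 5.30 in control livers, a change of 1.79 ± 0.476 (adjusted p = 0.0852). Kif23 was at 4.73, 5.04 and 6.08 in the knockouts, against 4.08, 3.39 and 4.29 in controls, a change of 1.36 ± 0.338 (adjusted p = 0.0699). The array labelled liver control 3 was the highest control for all of these genes, and NEMO knockout 3 was the highest knockout.

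Of the other mitotic members, 6 are given here because they rose without the arrays in doubt. Kif20b was at 4.83, 4.43 and 5.82 in NEMO knockout livers, against 3.35, 3.00 and 4.62 in control livers. Kif4 was at 3.96, 3.83 and 5.62 in NEMO knockout livers, against 2.55, 2.97 and 3.74 in control livers. Kif22 was at 4.53, 4.71 and 5.84 in NEMO knockout livers, against 3.46, 3.67 and 4.39 in control livers. The groups overlapped for Kif20b and stood apart for Kif4 and Kif22, narrowly for Kif4. Kif18a was at 3.68, 3.55 and 4.74 in the knockouts, against 2.99, 2.99 and 3.22 in controls. Kif15 was at 3.76, 3.49 and 4.37 in the knockouts, against 2.89, 3.12 and 3.20 in controls. Kifc5b was at 4.55, 4.83 and 5.20 in the knockouts, against 4.02, 4.20 and 4.37 in controls. None of these 3 had overlapping groups, and their adjusted p lay between 0.0917 and 0.112 with all arrays.

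Without the arrays in doubt, 10 of the 12 mitotic kinesins rose in NEMO knockout livers, where 8.48% of all genes rose. Kif11 then changed by 2.26 (adjusted p = 0.00236), Kif2c by 2.37 (adjusted p = 0.00245) and Kif20b by 1.85 (adjusted p = 0.00348), and Kif14 and Kif2b were not called. The fit without liver control 3 alone called 7, where 7.49% of all genes were called, that without liver double knockout 3 called 3, where 3.52% of all genes were called, and those without control 1 or 2, any KEAP1 knockout, NEMO knockout 2 or 3, or double knockout 1 or 2 called 0. Kif24, a depolymerase of centrioles that restrains cilia, was at 3.91, 4.20 and 4.35 in NEMO knockout livers, against 3.46, 2.98 and 3.41 in control livers. Its groups did not overlap, and its change of 0.87 ± 0.193 had an adjusted p of 0.0504, and of 0.0149 without the arrays in doubt. Kif24 also averaged 3.90 in KEAP1 knockout and 3.75 in double knockout livers, against 3.28 in control livers. It was called in neither of these comparisons with controls. Of the transport kinesins 0 were called with all arrays. Kif5b was at 8.20, 8.06 and 8.20 in NEMO knockout livers, against 7.71, 7.67 and 8.07 in control livers, overlapping narrowly. Without the arrays in doubt Kif5b rose by 0.46 (adjusted p = 0.00817) and Kif21b, which restrains microtubule growth, by 0.78 (adjusted p = 0.0182). In the same fit Kifc2 fell by 0.61 (adjusted p = 0.0295) and Kif1c, a vesicle motor, fell by 0.35 (adjusted p = 0.0484), where 3.55% of all genes fell. With all arrays, the probe set used for Kif1c averaged 7.12 in NEMO knockout livers and 7.37 in control livers. A second Kif1c probe set hardly differed, at 5.71 in NEMO knockout livers and 5.73 in control livers.

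Of the spindle partners 8 of 20 rose in NEMO knockout livers, and 16 without the arrays in doubt. Plk1 changed by 2.35 ± 0.487 (adjusted p = 0.0399) and Tpx2, which loads motors on the spindle, by 2.15 ± 0.425 (adjusted p = 0.034). Mki67 was at 6.80, 6.99 and 8.36 in NEMO knockout livers, against 4.01, 4.29 and 6.41 in control livers, with an adjusted p of 0.0504. The array labelled liver control 3 was again above the other controls. Macrophage markers were called in 0 of 7 cases, and in 6 of 7 without the arrays in doubt. Their mean level was 8.16 to 8.29 in NEMO knockout livers, against 7.25 to 8.37 in control livers. Stellate cell markers averaged 7.49 to 8.00 in NEMO knockout livers, against 6.01 to 7.07 in control livers, with no overlap. Of these 1 of 6 was called, and 5 of 6 without the arrays in doubt. Endothelial markers averaged 7.85 to 7.98 in NEMO knockout livers, against 7.35 to 8.27 in control livers. The part of these markers in the result was not tested.

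Double knockout livers gave 0 called kinesins against control livers (limma), where 0.00531% of all genes were called, while 14 of the 39 had an unadjusted p under 0.05, as did 20.7% of all genes. The median mitotic change was 0.62. Kif26b, known for its role in mouse kidney development, was at 4.97, 4.94 and 5.40 in double knockout livers, against 3.74, 3.70 and 4.30 in control livers. Kif3a, a subunit of the kinesin-2 motor of cilia, was at 5.37, 5.50 and 6.40 in double knockouts, against 4.85, 4.55 and 5.06 in controls. Neither gene had overlapping groups, and their changes of 1.19 ± 0.252 for Kif26b and 0.94 for Kif3a had an adjusted p of 0.134 each. A second Kif26b probe set averaged 4.46 in double knockout livers and 3.44 in control livers. The replicate numbers of these 2 groups deviated together, with correlations of 0.115, 0.136 and 0.23, the highest for the pair in which both arrays were in doubt. With the replicate number as a block, Kif26b (adjusted p = 0.0338), Kif3a (adjusted p = 0.0317) and Kif23, with a change of 1.02 (adjusted p = 0.0478), were called higher, where 4.25% of all genes were called.

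Without the arrays in doubt, 5 kinesins rose in double knockout livers, where 6.37% of all genes rose. Kif26b changed by 1.23 (adjusted p = 0.014), Kif3a by 0.73 (adjusted p = 0.0336), Kif11 by 1.55 (adjusted p = 0.035), Kif16b by 0.56 (adjusted p = 0.0298) and Kif5b by 0.43 (adjusted p = 0.0229). Kif16b was at 6.92, 6.73 and 6.89 in double knockout livers, against 6.41, 6.12 and 6.66 in control livers. Here too the groups did not overlap. Without liver control 3 alone, 3 mitotic and 5 transport kinesins were called, where 11.7% of all genes were called. Macrophage markers averaged 8.39 to 8.50 in double knockout livers, against 7.25 to 8.37 in control livers, and stellate cell markers 7.05 to 8.10 in double knockout livers, against 6.01 to 7.07 in control livers. The macrophage means stood narrowly apart and the stellate means overlapped. Bile duct markers averaged 4.04 to 6.37 in double knockout livers, against 3.92 to 4.03 in control livers, with the highest mean on double knockout 3. None of these lists had a called marker with all arrays, while 6 of 7 macrophage and 3 of 6 stellate markers were called without the arrays in doubt. Their part in the result was not tested.

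KEAP1 knockout livers gave 0 called kinesins against controls (limma), where 0% of all genes were called, and 5 of the 39 had an unadjusted p under 0.05, as did 7.69% of all genes. Without the arrays in doubt 3.71% of all genes rose, among them Kif5b with a change of 0.48 (adjusted p = 0.0122) and Kif16b with a change of 0.50. Kif5b was at 8.07, 8.18 and 8.27 in KEAP1 knockout livers, against 7.71, 7.67 and 8.07 in control livers, where the third control array is the one in doubt. Without the arrays in doubt 2 of 6 stellate, 1 of 7 macrophage and 3 of 6 endothelial markers also rose, and their part was not tested. Double knockout livers gave 0 called kinesins against NEMO knockout livers, where 1.05% of all genes were called, with a median mitotic change of -0.51 and an unadjusted p under 0.05 for 6 of the 39 and 11.9% of all genes. They gave 0 against KEAP1 knockout livers too (limma), where 0% of all genes were called, with a median mitotic change of 0.67 and an unadjusted p under 0.05 for 8 of the 39 and 7.59% of all genes. Here 7 mitotic members had double knockout arrays wholly above KEAP1 knockout arrays, as did 7.4% of all genes. The liver interaction called 0 members, where 0.0106% of all genes were called, and 2 of the 39 had an unadjusted p under 0.05, as did 5.06% of all genes. Kif24 had the lowest p of the members, with an interaction of -1.02 ± 0.273 (adjusted p = 0.605). The median interaction over the mitotic members was -0.53, and -0.89 without the arrays in doubt, where limma called 0 members and 65 of 18820 genes.

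Control hepatocytes and control livers differed in 3 kinesins, where 1.29% of all genes were higher in hepatocytes. Kif24 was at 4.52, 4.04 and 4.43 in control hepatocytes, against 3.46, 2.98 and 3.41 in control livers. Its groups did not overlap, and its change of 1.05 ± 0.19 (adjusted p = 0.00132) was called without the arrays in doubt (adjusted p = 0.0212), where 0.733% of all genes were higher, and in all 24 fits that left out 1 array. Kif6 was higher by 0.54 ± 0.148 (adjusted p = 0.0363), with an adjusted p of 0.0654 once the arrays in doubt were left out. Kif13a was higher by 0.45 ± 0.125 (adjusted p = 0.0359). Its adjusted p was 0.285 once the arrays in doubt were left out, and the call was also lost without hepatocyte control 1 or 2 or liver control 1 or 3. Of the mitotic members 0 were called, with a median change of -0.15, and of 0.01 without the arrays in doubt. Macrophage markers were lower in control hepatocytes in 7 of 7 cases, endothelial markers in 6 of 6 and stellate markers in 4 of 6. Centring each array gave 1453 of 18820 genes higher and 549 lower, against 243 higher and 723 lower as deposited. The median change over all genes was then 0.21, and Kif16b and Kif21a were called higher beside Kif13a.

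Whether the NEMO knockout change differed between liver and hepatocytes was tested in a fit of all 24 arrays, which called 0 members, where 0.0691% of all genes were called and 5 of the 39 members had an unadjusted p under 0.05, as did 9.46% of all genes. The median difference, liver minus hepatocytes, was -0.40 over the mitotic members and 0.07 over the transport members. It was -0.23 and 0.15 without the arrays in doubt, where limma called 0 members and 12 of 18820 genes. Kif24 had a difference of 0.88 ± 0.269 (adjusted p = 0.283), with levels of 4.29, 4.22 and 4.46 in NEMO knockout hepatocytes beside 4.52, 4.04 and 4.43 in control hepatocytes. The same test of the double knockout change called 0 members, where 0.0691% of all genes were called, with an unadjusted p under 0.05 for 5 of the 39 and 7.59% of all genes. That of the KEAP1 knockout change called 0 members, where 0% of all genes were called, with an unadjusted p under 0.05 for 1 of the 39 and 5.68% of all genes. This member was Kif24, with a difference of 1.18 ± 0.269 (adjusted p = 0.452).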

How the data were processed

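RNA of 24 samples was labelled with biotin and hybridised to 1-colour Affymetrix mouse arrays. Values are log2 levels of probe sets as deposited, and the submitters' processing notes name RMA for them, its version not given in the sources used here. Array medians lay between 4.03 and 4.23, and the number of arrays limits the precision. Every deposited sample column was used.

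Of 35556 probe sets, 21218 carry 1 gene symbol, 1881 several and 12457 none in the platform annotation used. The brightest one-symbol probe set stood for a gene, giving 18820 genes, of which 1386 had several probe sets, 7 of them members. Another 6 probe sets that name a kinesin beside another gene were left out, so Kif20a and Kif3c were not analysed here. Changes were fitted with limma 3.58.1 in R 4.3.3 (lmFit and eBayes with a mean trend, two-sided) on the 12 arrays of a tissue, or on 24 for comparisons across tissues. P-values were adjusted by Benjamini-Hochberg over 18820 genes, and genes under 0.05 were called. The fit was tested on simulated data. Any member could be named. Values on every array were given for members called in NEMO knockout livers with or without the arrays in doubt (at most 12 by size of the limma statistic) and for members called in another comparison within a tissue (at most 12 by p). Of each other list at most 4 called genes with the largest changes were named. The rule also set Mki67, Cenpe and Foxm1 to be named always, but no Foxm1 value is given here. Array values of other members were added after they were seen.

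The members, functional classes and lists of partners and markers (162 genes in 17 lists) were chosen with earlier results of these data known, and lists are described by counts and medians. Promoter windows came from RefSeq GRCm38.p6, with no genome used. Replicate numbers were checked for pairing through the correlation of deviations from the group means. In double knockout and control livers all 3 pairs passed 0.1, and the blocked values stand beside that result. Alternatives were a filter on genes averaging under 4, eBayes without the trend, the mean of all probe sets, 2 groups only, all 24 arrays, median centring, quantile normalization, the replicate block, and leaving out each array or the 4 arrays in doubt.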

Additional observations from a re-analysis of the deposited data

How the results depend on the processing

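Of the class counts under the alternatives, 686 stayed within 1.5 times the reported count and 64 did not. The 686 include reported counts of 0 that stayed 0. Of the values for single kinesins, 88 gained a call and 97 lost one. Among those called in either fit, 0 changed sign, and changes of sign in values without a call were not counted. The mitotic count for NEMO knockout against control livers (1) was 2 with the filter at a mean of 4, 0 without the trend, with mean probe sets or with 2 groups only, 10 with all 24 arrays, 2 with centring, 8 with the replicate block and 10 without the arrays in doubt, and its transport count (0) was 4 without the arrays in doubt. For KEAP1 knockout livers the transport count (0) was 2 without the arrays in doubt. For double knockout against control livers the mitotic count (0) was 1 with the replicate block and 1 without the arrays in doubt, and the transport count (0) was 2 with all 24 arrays, 1 with the block and 3 without the arrays in doubt. In hepatocytes, the transport count for NEMO knockouts (1) was 2 with the filter, 2 with 24 arrays and 3 with centring, and for double knockouts against controls (0) it was 2 with centring. For double against NEMO knockout hepatocytes the mitotic count (4) was 2 without the trend, 1 with 2 groups only, 0 with 24 arrays and 0 without the arrays in doubt, and the transport count (1) was 0 with 2 groups only. For double against KEAP1 knockout hepatocytes the mitotic count (5) was 1 with 24 arrays. For control hepatocytes against control liver the transport count (1) was 0 with 2 groups only, 3 with centring and 0 without the arrays in doubt. The cause was not tested.

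When each array was left out in turn, the mitotic count ranged over 8 to 10 for NEMO knockout and 5 to 6 for double knockout hepatocytes against controls, 0 to 4 for double against NEMO knockout and 3 to 5 for double against KEAP1 knockout hepatocytes, 0 to 7 for NEMO knockout livers and 0 to 3 for double knockout livers. The transport count ranged over 1 to 1 for NEMO knockout hepatocytes, 0 to 1 for each double knockout comparison in hepatocytes, 0 to 2 for NEMO knockout, 0 to 1 for KEAP1 knockout and 0 to 5 for double knockout livers against controls, and 0 to 1 for control hepatocytes against control liver. Where a group had 2 arrays left, its spread was pooled with the others. Shares over all genes in the fits that left out 1 array are given above for some liver comparisons only. In pairs of groups other than double knockout and control livers the replicate numbers did not all pair. With the replicate block, NEMO knockout hepatocytes had 10 mitotic members called, with Kif14 added (adjusted p = 0.0224), and double against NEMO knockout hepatocytes lost Kif18a (adjusted p = 0.0715) and gained Kif20b (adjusted p = 0.0334).

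Counts over all genes moved as well. NEMO knockout livers (251) had 343 with the filter, 217 without the trend, 256 with mean probe sets and 26 with 2 groups only. They had 779 with 24 arrays, 312 with centring, 837 with the block and 2265 without the arrays in doubt. KEAP1 knockout livers (0) had 5 with 24 arrays, 1 with the block and 990 without the arrays in doubt. Double knockout livers (1) had 0 with 2 groups only, 632 with 24 arrays, 799 with the block and 1732 without the arrays in doubt. Against NEMO knockout livers (197) they had 333 with 2 groups only, 442 with 24 arrays, 319 with the block and 651 without the arrays in doubt. In hepatocytes NEMO knockouts (1252) had 3096 and double knockouts (1830) 4161 with centring, and 1150 double knockout calls with 2 groups only. NEMO knockouts had 1376 with the filter, 1147 with 24 arrays and 1298 with the block. Double against NEMO knockouts (624) had 440 without the trend, 530 with 2 groups only and 467 with 24 arrays. The same comparison had 642 with the block and 716 without the arrays in doubt. KEAP1 knockouts (352) had 232 without the trend and 155 with 2 groups only, and double against KEAP1 knockouts (518) 259 with 24 arrays. Centring split KEAP1 knockout calls into 189 higher and 165 lower, against 272 and 80, double against KEAP1 knockout calls into 290 and 309, against 407 and 111, and NEMO knockout liver calls into 160 and 152, against 191 and 60. Control hepatocytes against control liver (966) had 300 with 2 groups only, 2002 with centring and 576 without the arrays in doubt. The hepatocyte interaction (8) had between 3 and 22. The liver interaction (2) had 65 without the arrays in doubt.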
